A study of Homo sapiens with 15 samples.

Results

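The comparison set MM.1S cells grown in direct contact with HS5 stromal cells (CO) against MM.1S cells kept above the same stromal cells in a transwell (TSW). Its members were the 3 CO and 3 TSW libraries of MM.1S, 6 of the 15 RNA-Seq libraries of the study, and every gene whose RPKM averaged 1 or more across the 9 MM.1S libraries. These were 10153 of the 20468 genes in the table. The study profiled MM.1S and RPMI8226, established human multiple myeloma (MM) cell lines, in 3 culture conditions. In MONO, MM cells grew alone in the well. In TSW, MM cells sat in the upper transwell over HS5, an established human bone marrow stromal line, so that soluble factors crossed the membrane and cells did not. In CO, MM cells were taken from the lower chamber, where they lay on the adherent HS5 layer. The cells were grown in 1 medium, the coculture cells were treated with trypsin, and per the study's methods cells negative for CD90 and positive for CD38 were sorted before RNA was isolated. The question was which expression differences came with physical adhesion in addition to soluble factors.

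Myeloma cells home to the bone marrow, where they bind stromal cells and the matrix these cells lay down. Stromal cells are known for secreting collagens, matrix metalloproteinases and cytokines such as IL6 and CXCL8, while plasma cells are known for CD38, SDC1, IRF4, XBP1 and immunoglobulin chains. A sort removes most cells of the other type, and the RNA of remaining cells is read together with that of the sorted ones. The study noted that HS5 cells were present at a minimal level among the MM cells sorted from CO. The study left out of all its analyses genes typical of HS5 and silent in MM cells, and also genes whose promoter was not open in every condition, and neither kind was left out here.

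Expression was measured as RPKM from pair-end tags (PETs, sequenced fragments). The PETs on the genes of the table, recovered from the steps of the RPKM values, summed to 14260718, 15206201 and 13126683 in TSW and to 16101335, 15342249 and 13825751 in CO. Reads outside these genes are not counted in them. Differences are given on the log2(RPKM + 1) scale, which understates the change of genes with low RPKM. An adjusted p is from limma with the 9 MM.1S libraries in 1 fit unless an alternative or a library left out is named, and ranges over the alternatives include voom. A gene was called at an adjusted p under 0.05 with a fold change over 1.5. The labels do not say whether replicates were separate cultures, so the p-values cover only the spread between these libraries.

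Libraries of MM.1S cells sorted from contact with HS5 differed from transwell libraries in few genes. Genes for metalloproteinases, cytokines and matrix proteins, near 0 in TSW, were at an RPKM of up to 47 in CO, with MMP1, CXCL8 and TFPI2 the furthest apart. Lists of genes typical of stromal cells held 25 of the 38 genes called higher. Of the 25, 23 passed the expression filter only through their CO values. HS5 cells were present at a minimal level in the CO sort, per the study. The share of their RNA was not tested for any gene. Among genes that MM.1S expressed without contact, HMOX1 and SOD2 were higher in CO, while the chemokine CCL3, its copy CCL3L3 and the cell cycle inhibitor CDKN1A were lower. When each of the 9 libraries was left out in turn, HMOX1 lost its call in 4 fits, SOD2 in 6 and CDKN1A in 5. CCL3 and CCL3L3 lost theirs in 0. In all 42 genes were called, 38 higher in CO (0.374% of the tested genes) and 4 lower (0.0394%). These counts depended on the settings. The 38 became 128 without a filter on low values and 5 at a mean RPKM of at least 5. The 4 became 2 at that stricter filter and 11 with only TSW and CO in the fit. The CO and TSW values of all 42 did not overlap, as was so for 1650 tested genes (16.3%), 773 of them higher and 877 lower in CO. PCK2 and FGF2 passed the adjusted p and missed the fold limit. At an unadjusted p under 0.05 there were 450 genes.

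Most tested genes had close values in the 2 conditions. The median difference was -0.00080 with an SD of 0.21 over genes, and the median SE was 0.12. For 9260 genes (91.2%) the 95% interval lay within the 1.5-fold limits, and 851 further genes were not called but had an interval that reached past them. The Euclidean distance over tested genes was 22.9 to 31.8 between TSW and CO libraries, 14.9 to 18.5 within TSW and 18.8 to 22.9 within CO. The count of lower genes moved with single libraries. It was 8 without MONO1, 7 without MONO2, and 2 without TSW1, TSW2 or CO1, and the count of higher genes was 30 to 43 over the same 9 fits.

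**Figure D1:**
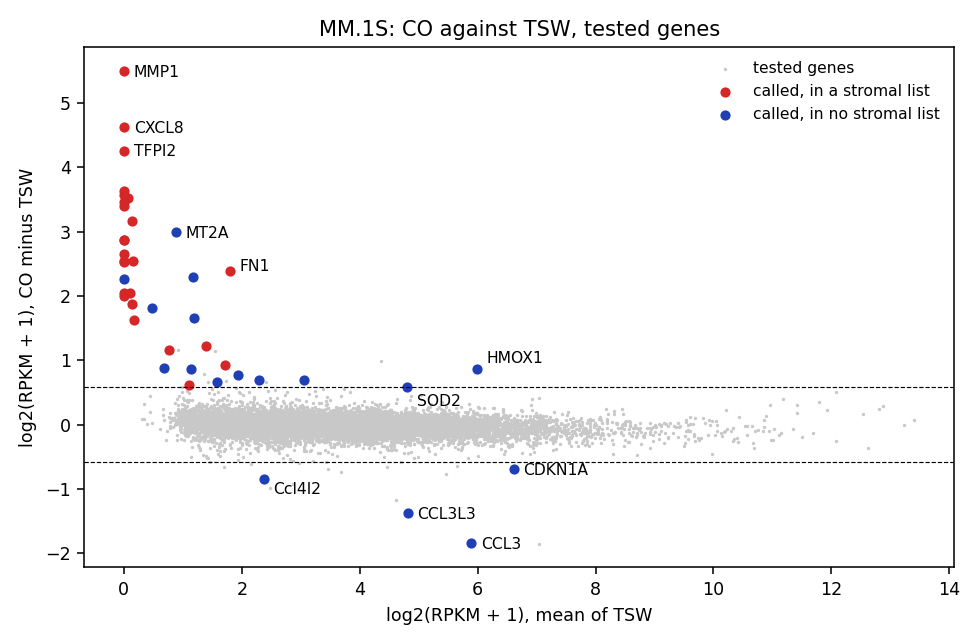
Log2(RPKM + 1) difference of CO minus TSW against the TSW mean for the 10153 tested genes, with called genes in red (in a stromal list) or blue (in no stromal list) and dashed lines at the 1.5-fold limits. Called genes with the largest increases sit at the left edge, where TSW is at or near 0.

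Extracellular proteases and their inhibitors held the largest increase. MMP1, the interstitial collagenase (chr11:102789919-102798160, GRCh38.p14), had no PET in any TSW library and an RPKM of 44.5, 46.9 and 41.0 in CO1, CO2 and CO3. The difference was 5.50 (SE 0.089, limma adjusted p = 3.39e-11), and CO was at least 397-fold higher than a floor of 3 PETs per TSW library. Such floors cover counting error only. MMP3, the stromelysin encoded beside it (chr11:102835801-102843609), was at 0 in TSW and at 12.0, 11.7 and 9.14 in CO, at least 87.5-fold higher. All CO libraries of these neighbouring genes lay far above a TSW group without a PET. TFPI2, a serine protease inhibitor of the matrix, was at 0 in TSW and at 18.4, 18.2 and 17.8 in CO, a difference of 4.26 (SE 0.081, limma adjusted p = 6.99e-11). SERPINB2, an inhibitor of plasminogen activators, was at 0 in TSW and at 9.06, 10.1 and 10.8 in CO. The CO values of TFPI2 were within 1 RPKM of each other, and those of SERPINB2 within 2. MMP2, a gelatinase, was at 0 in TSW and 5.14, 6.02 and 4.79 in CO, and its membrane-bound activator MMP14 at 0 and 4.54, 5.58 and 4.23. Of 14 genes in the list of stromal proteases and inhibitors, all had a PET, 10 were tested and 7 were called. The 7 passed the expression filter only through their CO values, so their share of the tested genes is not read as a result. The metalloproteinase inhibitor TIMP2, the most abundant member in both conditions, had 79.6, 76.6 and 72.8 in TSW and 74.8, 80.9 and 73.9 in CO, values that overlapped. The list summed to an RPKM of 120.0, 114 and 107 in TSW and 209, 229 and 201 in CO.

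Cytokines and chemokines made in quantity by stromal cells followed. CXCL8, the neutrophil chemoattractant IL8, had no PET in TSW and an RPKM of 25.5, 23.0 and 22.7 in CO. The difference was 4.63 (SE 0.087, limma adjusted p = 6.99e-11), at least 177-fold above the floor. IL1B, an inflammatory cytokine, had 0, 0.112 and 0.0432 in TSW and 9.89, 11.1 and 12.3 in CO. Both genes separated the groups completely. GREM1, a secreted antagonist of bone morphogenetic proteins, was at 0 in TSW and 5.96, 6.61 and 6.28 in CO. CSF3, the granulocyte growth factor, was at 0 and 3.83, 3.02 and 2.33. CCL2, a monocyte chemoattractant that MM.1S in TSW already held at 1.498, 1.40 and 1.93, was at 5.39, 6.005 and 4.06 in CO (difference 1.23, limma adjusted p = 0.000932). Of the called members of the stromal cytokine list, CCL2 alone had a TSW mean over 1, and its call was lost with a pseudocount of 0.1, with limma adjusted p from 0.000353 to 0.0565 over the alternatives. CCL7, its neighbour in function, had 0.774, 0.403 and 1.496 in TSW and 3.28, 4.56 and 1.95 in CO without a call (difference 1.17, 95% interval 0.57 to 1.77, limma adjusted p = 0.194). FGF2, a fibroblast growth factor, had 1.12, 1.33 and 1.08 in TSW and 2.17, 2.29 and 2.32 in CO (difference 0.58, limma adjusted p = 0.0304), just under the fold limit, and was called with voom. IL6, a growth factor of myeloma cells, was below the expression filter, with 0, 0.0331 and 0 in TSW and 2.53, 2.96 and 2.39 in CO. CO exceeded TSW in every library for CCL7, FGF2 and IL6. Of 28 genes in the list of stromal cytokines, 26 had a PET, 8 were tested and 5 were called, but 6 of the tested genes, all 5 called ones among them, passed the filter only through CO. The list summed to 6.33, 6.001 and 7.40 in TSW, with CCL2 the most abundant, and to 76.4, 77.7 and 71.6 in CO, with CXCL8 the most abundant.

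The promoters of 3 of these genes are shown because the genes were near 0 in TSW, moved together and share a motif. The motif searched was TGANTCA, a loose form of the AP-1 site, whose consensus has C or G in the centre, and 1 search covers both strands. CXCL8 has the C of the consensus, while TFPI2 and SERPINB2 have an A. It is held by 2707 of 35116 RefSeq promoters of 300 bases (7.71%) and by 2558 of 27305 genes (9.37%). A promoter was in the table for 22 of the 38 genes called higher, and 6 of the 22 hold the motif. The sequences are from RefSeq on GRCh38.p14, 5′ to 3′ on the strand of the gene, with the motif in capitals. CXCL8 lies at chr4:73740319-73740618 on the plus strand with the motif starting 137 bases before the transcript start, TFPI2 at chr7:93890704-93891003 on the minus strand with 87 bases, and SERPINB2 at chr18:63887455-63887754 on the plus strand with 102 bases.
CXCL8: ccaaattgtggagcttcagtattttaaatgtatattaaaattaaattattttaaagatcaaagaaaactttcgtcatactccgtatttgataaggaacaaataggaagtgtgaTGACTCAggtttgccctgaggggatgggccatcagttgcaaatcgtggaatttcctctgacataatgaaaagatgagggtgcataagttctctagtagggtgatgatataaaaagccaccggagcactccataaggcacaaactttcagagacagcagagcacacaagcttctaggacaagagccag
TFPI2: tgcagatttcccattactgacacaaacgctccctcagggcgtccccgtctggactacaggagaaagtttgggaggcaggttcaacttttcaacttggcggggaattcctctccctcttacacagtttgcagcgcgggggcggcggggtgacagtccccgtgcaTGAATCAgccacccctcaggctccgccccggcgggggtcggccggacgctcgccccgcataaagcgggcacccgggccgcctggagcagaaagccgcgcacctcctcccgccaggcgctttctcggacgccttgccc
SERPINB2: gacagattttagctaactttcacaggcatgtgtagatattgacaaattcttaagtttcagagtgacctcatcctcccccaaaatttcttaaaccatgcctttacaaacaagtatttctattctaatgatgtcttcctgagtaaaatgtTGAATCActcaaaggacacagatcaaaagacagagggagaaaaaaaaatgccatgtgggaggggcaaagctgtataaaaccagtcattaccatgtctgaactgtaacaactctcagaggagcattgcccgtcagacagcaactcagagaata
A match describes the letters in the window, and no measurement of binding was used here.

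Fibrillar collagens and other matrix genes formed the longest stromal list. COL1A2, a chain of type I collagen, had no PET in TSW and an RPKM of 10.8, 13.4 and 10.2 in CO, at least 272-fold higher than the floor (difference 3.63, SE 0.10, limma adjusted p = 2.48e-09). COL3A1, the type III chain, was at 0 in TSW and at 8.96, 11.3 and 8.66 in CO. COL1A1, the other type I chain, had 0.0709, 0.111 and 0.141 in TSW and 4.84, 6.37 and 5.18 in CO. No TSW library of these 3 collagens reached an RPKM of 1. The type VI chains COL6A1 and COL6A2 were at 0 in TSW, and COL6A1 was at 7.44, 6.48 and 5.10 in CO. COL6A2 was at 5.45, 5.35 and 3.80 in CO. FN1, the adhesive glycoprotein fibronectin to which myeloma cells bind through integrins, was expressed in TSW at 2.37, 2.55 and 2.48 and in CO at 17.7, 19.9 and 14.5 (difference 2.395, SE 0.20, limma adjusted p = 6.63e-05). Its lowest CO library was above its highest TSW library by over 10 RPKM. SPARC, a collagen-binding matrix protein, had 2.19, 2.36 and 2.29 in TSW and 4.86, 6.19 and 4.73 in CO (difference 0.93, limma adjusted p = 0.00135). FN1 and SPARC were the called genes of the stromal lists with a TSW mean of at least 2. THBS1, TGFBI, CYR61, LOXL2 and COL5A1 were also called, with CO means of 2.49, 3.21, 3.45, 2.77 and 2.30. COL5A1, with 1.01, 1.26 and 1.16 in TSW and 2.27, 2.51 and 2.12 in CO, lost its call without TSW1, TSW3, CO1 or CO2 and with quantile normalization, with limma adjusted p from 0.00265 to 0.0754 over the alternatives. IGFBP3, a binding protein of insulin-like growth factors and the most abundant matrix-list member in TSW, was not called, with 6.42, 5.35 and 6.86 in TSW and 6.26, 6.71 and 5.99 in CO. Of 33 genes in the list, 31 had a PET, 14 were tested and 12 were called, of which 10 passed the filter only through CO, FN1 and SPARC being the others. The called share is therefore not read as a result. The list summed to 13.6, 13.9 and 14.8 in TSW and 88.3, 104 and 80.5 in CO, where FN1 was the most abundant.

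Genes that mark the body of a stromal cell, such as its cytoskeleton and surface, formed the last stromal list. Of 30 such genes, all had a PET, 24 with a higher and 6 with a lower mean in CO, and 4 were at 0 in every TSW library. The test took in 11, 10 of which passed the filter without CO, and MYL9, a myosin light chain of contractile cells, was the only gene called, with 0.0586, 0.165 and 0.0636 in TSW and 3.48, 2.61 and 3.02 in CO. LGALS1, a galectin that MM.1S itself expressed, was the most abundant, with 395, 372 and 373 in TSW and 266, 379 and 313 in CO. Without LGALS1 the list summed to 217, 205 and 210.1 in TSW and 238, 249.8 and 226 in CO, and with it to 613, 577 and 583 in TSW and 503, 629 and 539 in CO. The sums with LGALS1 overlapped between the conditions and those without it did not. CNN2, an actin-binding protein, had 136, 124 and 130.3 in TSW and 143, 146 and 128 in CO. S100A6, a calcium-binding protein, had 11.7, 10.8 and 14.3 in TSW and 15.6, 19.4 and 20.5 in CO (difference 0.56, limma adjusted p = 0.362), and CAV1, the coat protein of caveolae, 10.6, 10.2 and 9.95 in TSW and 14.6, 12.7 and 13.5 in CO (difference 0.38, limma adjusted p = 0.177). CNN2 overlapped between the conditions, and the other 2 were higher in all CO libraries without a call.

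Of 8 defining stromal markers, COL1A2 and COL3A1 were at 0 in every TSW library and none was at 0 in every CO library. THY1, which encodes the sort marker CD90, was below the expression filter with 0.0293, 0 and 0 in TSW and 0.570, 0.489 and 0.453 in CO. CALD1, an actin regulator, had 0.102, 0.191 and 0.0277 in TSW and 0.508, 0.474 and 0.473 in CO. TAGLN, a smooth muscle protein, had 0.405, 0.718 and 0.881 in TSW and 0.997, 0.837 and 1.11 in CO, which overlapped. THY1 and CALD1 were thus higher in each CO library at levels under 1. The 4 stromal lists together had 105 members, of which 101 had a PET, 43 were tested and 25 were called higher. The 25 became 45 without the filter, 4 at a mean RPKM of at least 5 and 2 without genes under RPKM 2 in MONO and TSW. The filter let 24 of the 43 pass only through their CO values, 23 of the 25 called genes among them, so the called share follows from the filter in large part. Of the 101, 91 had a higher mean in CO and 10 a lower mean, while of all 16587 genes with a PET 8935 were higher and 7309 lower. At 0 in every TSW library were 38 members, and 5 were at 0 in every CO library. The summed RPKM of all 105 was 752, 711 and 712 in TSW and 877, 1040.1 and 892 in CO, LGALS1 the most abundant in both. Of the 38 increases 25 were themselves members of the stromal lists. The values of the stromal markers are given beside the increases, and their part in the result was not tested. In sorted bulk samples, more cells of a type and more RNA per cell cannot be told apart. RNA of HS5 cells left in the CO sort and RNA made by MM.1S cells cannot be told apart here either.

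**Figure D2:**
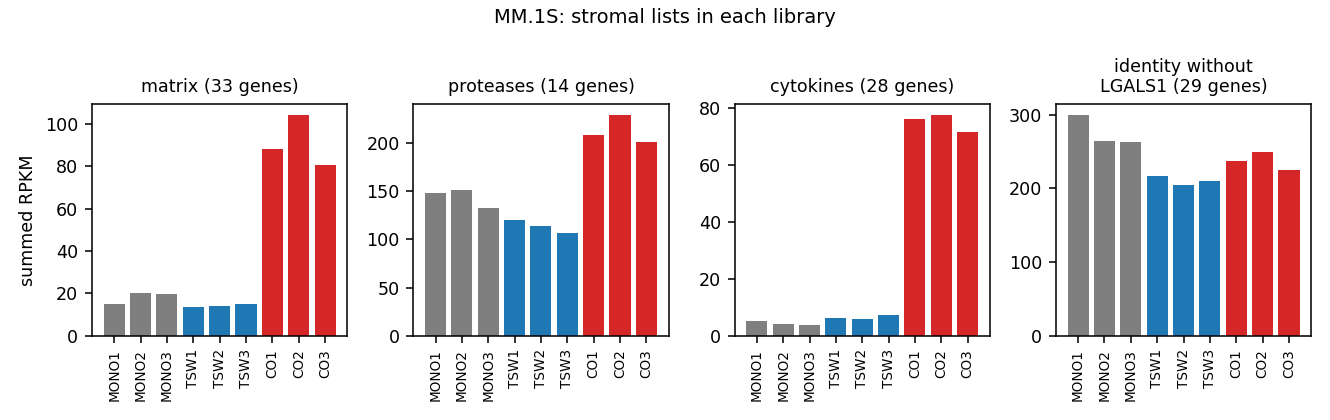
Summed RPKM of the members of each stromal list in the 9 MM.1S libraries, MONO in grey, TSW in blue and CO in red, with LGALS1 left out of the identity list. Matrix, protease and cytokine sums were highest in the CO libraries, and the identity sum was highest in MONO.

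Genes outside the stromal lists and under an RPKM of 2 in TSW made up 8 of the 38 increases, and 7 are described. MT2A, a metallothionein that binds zinc and copper, had 0.335, 0.942 and 1.27 in TSW and 11.7, 17.9 and 11.2 in CO (difference 2.99, SE 0.27, limma adjusted p = 0.000143), with a MONO mean of 2.62. CLDN11, a tight junction protein, was at 0 in TSW and 3.52, 4.17 and 3.79 in CO. In both the groups were well apart. CLDN11 had at most 3 PETs in every MONO and TSW library of both lines, as had MMP2 and COL1A2. Its CO mean was 1.57 in RPMI8226. GNG11, a subunit of heterotrimeric G proteins, had 0.441, 0.551 and 0.160 in TSW and 4.04, 4.71 and 2.96 in CO. MME, the membrane peptidase CD10, had 1.28, 1.09 and 1.49 in TSW and 6.17, 6.70 and 5.81 in CO (difference 1.66, limma adjusted p = 4.75e-05). FAM129B, a membrane-associated protein of the niban family, had 0.548, 0.639 and 0.613 in TSW and 2.03, 1.95 and 1.87 in CO (difference 0.88, limma adjusted p = 0.000269). Its replicates differed by under 0.2 RPKM within each condition. LGALS3BP, a secreted galectin ligand, had 1.02, 1.37 and 1.25 in TSW and 3.30, 3.78 and 2.14 in CO, and ENPP2, the lysophospholipase autotaxin, 2.36, 1.96 and 1.59 in TSW and 3.91, 4.05 and 3.18 in CO. ENPP2 lost its call without MONO2, MONO3, TSW2, TSW3, CO1 or CO2 and LGALS3BP without TSW1, TSW2, TSW3, CO1 or CO2. Both lost it with a pseudocount of 0.1 and with quantile normalization, and LGALS3BP also with voom. Limma adjusted p ran from 0.0194 to 0.213 for ENPP2 and from 0.00361 to 0.22 for LGALS3BP over the alternatives.

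Counts of PETs gave a view of genes that the expression filter left out. In MM.1S, 6704 genes had at most 3 PETs in every MONO and TSW library, and 121 of these (1.80%) had at least 10 PETs in every CO library. The same rule gave 0 of 6254 genes for TSW and 6 of 6341 for MONO. The 121 genes took 12009, 12608 and 9768 PETs in CO1, CO2 and CO3, which was 0.0746%, 0.0822% and 0.0707% of the recovered PETs, and summed to an RPKM of 253, 270.5 and 239. Stromal lists held 35 of them, among them MMP1 and COL1A2, and 86 were in none of these lists. The lists were a choice of 105 genes, so being in none of them does not make a gene non-stromal. The collagen gene COL5A3, for example, was among the 86. The filter kept 16 of the 121 and all 16 were called, which the way they were chosen made likely.

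RPMI8226, cultured with HS5 in the same way and with 2 libraries per condition, was set beside MM.1S without a test between the lines, since the tables were normalized separately. There 112 of 6550 such genes (1.71%) appeared in CO, 11 of 6205 in TSW and 19 of 6225 in MONO. The lines shared 58 genes, 47.9% of the MM.1S set and 51.8% of the RPMI8226 set, and 120 of the 121 MM.1S genes had a PET in every RPMI8226 CO library, as had 14408 of the 20468 genes in the table. Of the 121, 76 had at most 3 PETs in every RPMI8226 MONO and TSW library, and 75 of the 76 had a PET in every RPMI8226 CO library, as had 893 of all 6550 genes so low in RPMI8226 MONO and TSW (13.6%). Across the 76 genes, the log2(RPKM + 1) level in CO correlated between the lines (Pearson r = 0.919), with points that share the stromal line of the coculture and the length scaling, and that are not independent. MMP1 had a CO mean of 44.2 in MM.1S and 44.2 in RPMI8226, TFPI2 18.2 and 19.1, and COL1A2 11.5 and 4.95. CSF3 had 3.06 in MM.1S and 7.75 in RPMI8226, and IL6 2.63 and 6.34. By these means MMP1 was nearly equal, the collagen lower in RPMI8226, and CSF3 and IL6 higher there, without a test. The 112 RPMI8226 genes summed to an RPKM of 159 in its CO1 and 235 in its CO2, so its means join libraries that differ.

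**Figure D3:**
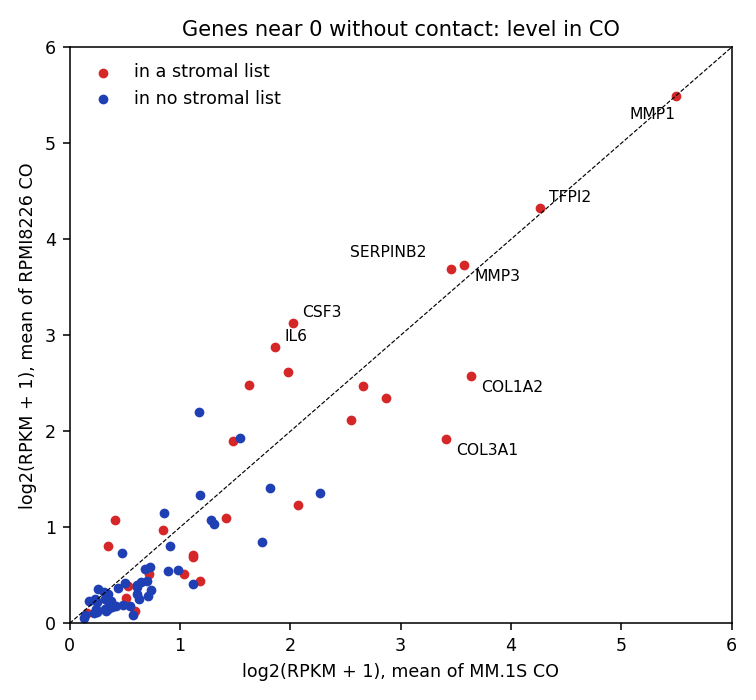
Mean log2(RPKM + 1) level in CO of MM.1S and of RPMI8226 for the 76 genes with at most 3 PETs in every MONO and TSW library of both lines and at least 10 in every MM.1S CO library, members of stromal lists in red and the dashed line at equal levels. MMP1, TFPI2, MMP3 and SERPINB2 lie near the line, COL1A2 and COL3A1 below it, and CSF3 and IL6 above it.

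Of the 38 genes called higher in MM.1S, 26 were tested in RPMI8226 and 20 were called higher there, where 196 of 10319 tested genes (1.90%) were called higher and 247 (2.39%) lower. Of the 26, 14 passed the RPMI8226 filter only through their CO values and all 14 were called, so that share follows in large part from the filter, and 6 of the other 12 were called. RPMI8226 CO was above TSW without overlap for 35 of the 38 and for 2806 of the 10153 genes tested in MM.1S (27.6%). CXCL8 had a mean of 3.54 in TSW and 55.3 in CO of RPMI8226, and MT2A 0.393 and 12.9. FN1 differed, since RPMI8226 expressed it at a TSW mean of 1820.0 and a CO mean of 2088 without a call. Of the 4 genes lower in MM.1S, CCL3, CCL3L3 and Ccl4l2 were below the expression filter in RPMI8226, where CCL3 had a mean of 0.965 in TSW and 0.454 in CO. CDKN1A was tested there and not called by limma. Of 27 genes called in MM.1S and tested in both lines, 3 had CO and TSW values that did not overlap in either line, with opposite directions, as had 189 of the 9397 genes tested in both (2.01%).

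Called genes outside the stromal lists with a TSW mean of at least 2 numbered 9 of 9109 such tested genes, 5 higher and 4 lower in CO. The count depended on the settings and on single libraries. It was 18 with only TSW and CO in the fit and 2 at a mean RPKM of at least 5. It was 15 without MONO1, 2 without TSW2, 5 without TSW3 and 4 without CO1, CO2 or CO3, and of all 42 called genes 32 were called in every one of the 9 fits.

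The 5 higher genes have different known roles. HMOX1, the heme-degrading enzyme heme oxygenase 1, had 72.3, 56.2 and 59.7 in TSW and 96.3, 144 and 109 in CO (difference 0.87, SE 0.14, limma adjusted p = 0.0247). CO2 was the highest library, and the lowest CO library exceeded the highest TSW library. SOD2, the mitochondrial superoxide dismutase, had 26.5, 26.9 and 27.5 in TSW and 40.0, 41.4 and 41.5 in CO (difference 0.59, SE 0.096, limma adjusted p = 0.0232). Its replicates lay within 2 RPKM of each other, and its difference was just over the fold limit, which was applied on the log2(RPKM + 1) scale. GBP4, an interferon-inducible guanylate-binding protein, had 4.51, 3.05 and 4.04 in TSW and 7.59, 6.35 and 6.59 in CO, and a MONO mean of 1.67. GPNMB, a transmembrane glycoprotein, had 2.99, 2.38 and 3.06 in TSW and 4.99, 6.36 and 5.24 in CO. SCNN1G, the gamma subunit of the epithelial sodium channel, had 8.16, 6.26 and 7.42 in TSW and 12.1, 12.0 and 12.7 in CO, both below its MONO mean of 25.3. In none of the 5 did CO and TSW overlap. A share of HS5 RNA in the CO values of these 5 genes was not tested. In RPMI8226 the difference of HMOX1 was -0.27, without a test between the lines. HMOX1 lost its call without TSW2, TSW3, CO2 or CO3, and SOD2 and SCNN1G whichever TSW or CO library was left out. GPNMB lost it without TSW2 or CO2, and GBP4 without MONO2, MONO3, TSW2, TSW3, CO1, CO2 or CO3. With the replicate block HMOX1, SCNN1G and GBP4 lost it, SOD2 with median-of-ratios scaling, and GBP4 also with a pseudocount of 0.1 and with quantile normalization. HMOX1, SOD2 and SCNN1G lost it at the stricter filter while still tested, and with GBP4 when low genes were left out. Limma adjusted p over the alternatives ran from 0.00483 to 0.177 for HMOX1, 0.000269 to 0.16 for SOD2, 0.00254 to 0.231 for SCNN1G, 0.00368 to 0.0664 for GPNMB and 0.0167 to 0.234 for GBP4.

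Chemokines of the CCL3 and CCL4 family, ligands of CCR1 that myeloma cells secrete, made up 3 of the 4 lower genes. CCL3 (MIP-1 alpha, chr17:36088256-36090143) had an RPKM of 49.97, 71.6 and 53.3 in TSW and 13.0, 19.7 and 13.9 in CO, and of 189, 136 and 117 in MONO. The difference of CO minus TSW was -1.85 (SE 0.20, limma adjusted p = 0.00073), and the highest CO library was below the lowest TSW library. CCL3L3, a copy of CCL3 (chr17:36194869-36196758), had 23.0, 29.6 and 28.6 in TSW and 10.0, 9.94 and 9.34 in CO (difference -1.37, SE 0.15, limma adjusted p = 0.000854). CCL3 and CCL3L3 were called in all 9 fits that left out a library. Ccl4l2, a copy of CCL4, had 4.46, 4.65 and 3.39 in TSW and 2.27, 1.66 and 1.72 in CO (difference -0.84, limma adjusted p = 0.0391). It lost its call without MONO3, TSW1, TSW2, CO1, CO2 or CO3. The call was also lost with voom, quantile normalization, median-of-ratios scaling, a pseudocount of 0.1 and without low genes, with limma adjusted p from 0.00545 to 0.256 over the alternatives. These genes have near-identical copies among which PETs could be split, so the level of each copy is uncertain. The list of chemokines and receptors had 12 of 18 members tested, 0 higher and 3 lower, with a median difference of -0.065 (0.039 without TSW1) beside -0.00080 over all tested genes. CXCR4, the homing receptor for CXCL12, had 35.6, 29.1 and 30.8 in TSW and 40.5, 47.5 and 44.9 in CO (limma adjusted p = 0.142), and CXCL10 7.32, 7.52 and 8.65 in TSW and 10.7, 12.0 and 11.1 in CO (limma adjusted p = 0.194). CCR1, a receptor of CCL3, had 76.1, 71.4 and 68.4 in TSW and 73.2, 73.4 and 69.2 in CO. CXCR4 and CXCL10 were higher in every CO library without a call, and CCR1 overlapped.

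The promoters of CCL3 and CCL3L3 are shown to make the likeness of these copies visible. They lie at chr17:36090094-36090393 and chr17:36196709-36197008, both on the minus strand of GRCh38.p14, and are from RefSeq. Of 300 bases of CCL3, 278 align to the same base of CCL3L3, an identity of 90.8% over 306 alignment columns. Capitals mark the bases that differ or have no partner.
CCL3: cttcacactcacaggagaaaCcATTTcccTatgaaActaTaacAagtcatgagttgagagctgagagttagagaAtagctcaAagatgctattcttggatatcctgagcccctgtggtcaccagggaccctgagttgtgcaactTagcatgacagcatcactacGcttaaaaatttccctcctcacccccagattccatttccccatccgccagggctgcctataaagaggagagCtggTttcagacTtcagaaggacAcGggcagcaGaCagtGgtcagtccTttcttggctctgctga
CCL3L3: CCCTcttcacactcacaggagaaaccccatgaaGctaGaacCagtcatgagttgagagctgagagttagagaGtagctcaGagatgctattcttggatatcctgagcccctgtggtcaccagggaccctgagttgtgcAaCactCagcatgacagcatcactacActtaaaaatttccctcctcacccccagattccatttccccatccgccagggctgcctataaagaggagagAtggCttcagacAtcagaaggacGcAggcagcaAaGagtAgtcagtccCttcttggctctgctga
Neither promoter was tested for any activity.

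CDKN1A, the cyclin-dependent kinase inhibitor p21 and a target of p53, was the other lower gene. It had 92.2, 103 and 95.1 in TSW and 51.9, 69.6 and 58.7 in CO, and 20.7, 20.6 and 16.9 in MONO. The difference of CO minus TSW was -0.69 (SE 0.12, limma adjusted p = 0.0353). Every CO library was below every TSW library and above every MONO library, where the comparisons with TSW share the TSW samples. The call was lost without TSW1, TSW2, TSW3, CO1 or CO3, at the stricter filter and without low genes, with limma adjusted p from 0.00709 to 0.254 over the alternatives. CDKN1A was the only called member of 24 p53 targets, all tested, whose median was -0.080 (-0.14 without CO2) with 6 higher and 18 lower. BTG2, an antiproliferative p53 target and the most abundant, had 233, 233 and 247 in TSW and 258, 245 and 251 in CO. TP53INP1, which promotes p53 phosphorylation, had 95.4, 105 and 105 in TSW and 122, 81.3 and 91.5 in CO. Both overlapped between the conditions. The other 23 targets were not called by limma, and the median of all tested genes was -0.00080.

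**Figure D4:**
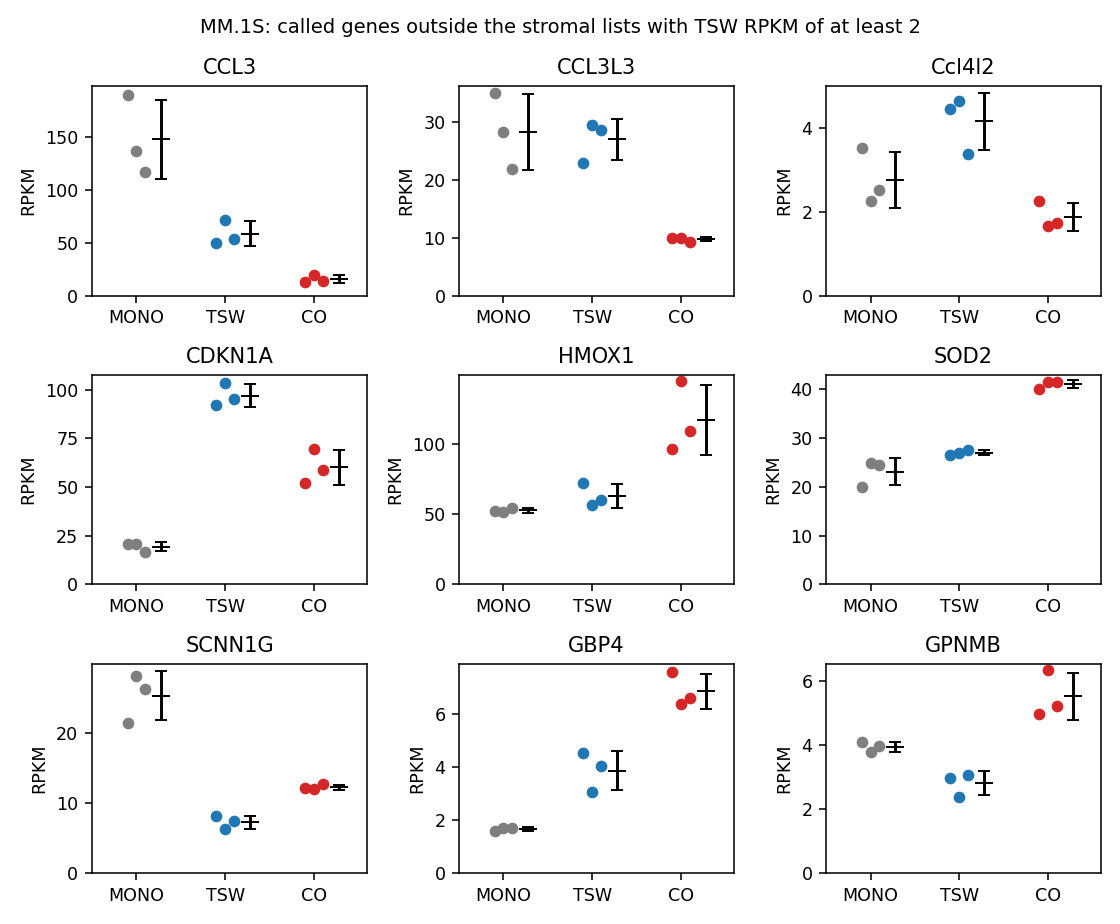
RPKM in each MM.1S library of the 9 called genes outside the stromal lists with a TSW mean of at least 2, with the mean and SD of 3 libraries beside the points. CCL3, CCL3L3, Ccl4l2 and CDKN1A were lower in CO than in TSW and the other 5 genes higher.

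Of 24 genes of the integrated stress and unfolded protein responses, 20 had a negative difference and none was called in the main fit. Whether CHAC1 and TRIB3 were called depended on the fit. All 24 members were tested, 0 were called by limma in the main fit, and 11 had an unadjusted p under 0.05 in it. With voom on recovered PETs 1, CHAC1, was called lower. The median difference was -0.21 with 4 higher and 20 lower, beside -0.00080 with 5043 higher and 5110 lower among all tested genes, and it lay between -0.26 and -0.20 when each library was left out in turn and at -0.17 after quantile normalization. CHAC1, which degrades glutathione, had 42.7, 43.8 and 42.2 in TSW and 22.3, 27.7 and 24.9 in CO, and a MONO mean of 2.75. Its difference was -0.76 (95% interval -1.11 to -0.41, limma adjusted p = 0.102). TRIB3, a pseudokinase induced by ATF4, had 48.3, 51.4 and 48.2 in TSW and 26.7, 36.5 and 31.1 in CO (limma adjusted p = 0.0626). DDIT3, the transcription factor CHOP, had 23.3, 26.5 and 25.5 in TSW and 13.4, 19.2 and 17.2 in CO (limma adjusted p = 0.262). CHAC1 was also called without MONO1 (limma adjusted p = 0.00404), without MONO2, with quantile normalization and with only TSW and CO in the fit. TRIB3 was called without MONO1 (limma adjusted p = 0.0197), MONO3 or CO2, without a filter and with only TSW and CO in the fit. In each of the 3 all CO libraries lay between the MONO mean and the lowest TSW library. CALR, the chaperone calreticulin and most abundant member, had 708, 697 and 666 in TSW and 675, 715 and 654 in CO, which overlapped. PCK2, a mitochondrial gluconeogenic enzyme outside the list that passed the adjusted p but not the fold limit, had 9.89, 10.1 and 9.35 in TSW and 5.60, 6.80 and 6.24 in CO (difference -0.58, limma adjusted p = 0.0306). It was named after its values were seen, and it was called with voom, quantile normalization and median-of-ratios scaling.

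Signalling pathways that stromal contact is known to engage held no called gene in most lists. For NF-kB, 21 of 23 genes were tested, 0 were called by limma or with voom, and 2 had an unadjusted p under 0.05. The median was 0.033, and 0.0088 without TSW1 or 0.052 without TSW2. IER3, an early response gene, had 1.81, 1.70 and 2.27 in TSW and 6.26, 4.63 and 5.66 in CO (difference 1.15, 95% interval 0.64 to 1.66, limma adjusted p = 0.0854). TNFAIP2, a TNF-induced gene, had 2.39, 1.93 and 1.80 in TSW and 3.12, 3.35 and 3.42 in CO (difference 0.50, limma adjusted p = 0.0645). These were the 2 genes past the unadjusted p. IER3 was called without MONO1, without MONO3 (limma adjusted p = 0.00215) and with only TSW and CO in the fit, and TNFAIP2 without TSW1. In the fit of all 9 libraries the intervals of 18 members lay within the 1.5-fold limits. For IL6 and STAT3, 19 of 23 were tested, 0 called by limma or with voom and 4 with an unadjusted p under 0.05, with a median of -0.048 (-0.079 without CO3, -0.010 without TSW3). PIM1, a survival kinase induced by STAT3, had 44.1, 38.5 and 40.5 in TSW and 55.9, 51.5 and 50.8 in CO (limma adjusted p = 0.443), and PIM2, the most abundant, 1336, 1302 and 1229 in TSW and 1064, 1149 and 1021 in CO (limma adjusted p = 0.998). These kinases differed in opposite directions, without a call. IL32, a cytokine near 0 in MONO with a mean of 0.262, had 84.9, 75.3 and 67.3 in TSW and 94.2, 87.9 and 91.0 in CO. Its interval of 0.045 to 0.49 lay within the 1.5-fold limits.

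Transcription factors of AP-1 had 11 of 14 members tested, 0 called by limma or with voom and 1 with an unadjusted p under 0.05. The median was -0.020, with its sign not stable, since it was 0.0046 after quantile normalization, 0.026 without TSW1, 0.0030 without TSW3 and 0.054 without CO1. MAF, a transcription factor activated in some myelomas and the most abundant member, had 114, 116 and 127 in TSW and 179, 124 and 145 in CO. JUNB, a proto-oncogene tied to myeloma survival, had 81.8, 81.7 and 78.2 in TSW and 76.4, 73.9 and 71.4 in CO (95% interval -0.33 to 0.083). ATF3, a stress-induced repressor, had 28.2, 28.5 and 27.7 in TSW and 17.4, 23.4 and 21.4 in CO (limma adjusted p = 0.271). MAF overlapped between the conditions, and JUNB and ATF3 were lower in each CO library without a call. Notch, a pathway that signals by cell contact, had 10 of 21 members tested, 0 called by limma or with voom, 0 with an unadjusted p under 0.05 and a median of 0.16 (0.086 without CO1). NOTCH2, its most abundant receptor, had 20.3, 18.2 and 19.0 in TSW and 21.4, 21.8 and 24.3 in CO (95% interval -0.31 to 0.75), and the target HES1 8.54, 8.82 and 7.35 in TSW and 9.90, 9.28 and 9.65 in CO (95% interval -0.24 to 0.64). These intervals reached past the 1.5-fold limit, so a difference of that size was not bounded. TGF-beta signalling had 16 of 22 tested, 0 called by limma or with voom, 1 with an unadjusted p under 0.05 and a median of 0.046 (0.030 without CO3). SKIL, a feedback inhibitor of SMAD proteins, had 3.71, 4.34 and 5.36 in TSW and 7.73, 6.32 and 6.52 in CO (difference 0.53, limma adjusted p = 0.574). SMAD7, the inhibitory SMAD, had 13.2, 12.2 and 13.5 in TSW and 13.5, 14.3 and 13.2 in CO, which overlapped. Interferon genes had 14 of 28 tested, 0 called by limma or with voom, 1 with an unadjusted p under 0.05 and a median of -0.027 (0.022 without CO1). BST2, the tetherin that holds back virus particles, had 355, 348 and 337 in TSW and 306, 359 and 377 in CO, and ISG15, a ubiquitin-like protein, 6.10, 5.32 and 6.28 in TSW and 3.26, 5.57 and 4.77 in CO. Both overlapped between the conditions. NRF2 targets had 12 of 13 tested and HMOX1 as the only call, with a median of 0.048 (0.0097 without TSW2, 0.10 without CO1). FTL, the ferritin light chain, had 4697, 4151 and 4087 in TSW and 3184, 4088 and 3641 in CO, and FTH1, the heavy chain, 333, 269.9 and 263 in TSW and 318, 364 and 338 in CO. The chains of ferritin overlapped between the conditions, unlike HMOX1.

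Adhesion molecules, with 20 of 28 tested, had 0 called by limma or with voom and 2 with an unadjusted p under 0.05. The median was -0.045 (0.0049 without CO1), with 8 higher and 12 lower, and 15 intervals lay within the 1.5-fold limits. ITGB7, the integrin beta 7 chain and most abundant member, had 1632, 1719 and 1508 in TSW and 1219, 1482 and 1306 in CO (difference -0.28, 95% interval -0.59 to 0.030). SELPLG, the selectin ligand PSGL-1, had 238, 238 and 215 in TSW and 224, 218 and 171 in CO. CD44, the hyaluronan receptor, had 50.2, 52.0 and 47.1 in TSW and 40.1, 39.2 and 34.4 in CO (difference -0.39, limma adjusted p = 0.746). ITGB7 and CD44 were lower in each CO library without a call. Plasma cell markers, with 14 of 16 tested, had 0 called by limma or with voom and 4 with an unadjusted p under 0.05. The median was -0.086, with 3 higher and 11 lower. It was -0.17 without CO2, -0.056 without CO3 and -0.041 after quantile normalization. The list summed to 5696, 5462 and 5317 in TSW and 5015, 5213 and 4759 in CO, without overlap, and 10 of the 14 intervals lay within the 1.5-fold limits. The sort marker CD38 had 46.9, 50.03 and 49.7 in TSW and 58.1, 57.4 and 61.4 in CO (difference 0.26, limma adjusted p = 0.998). The syndecan CD138, listed as sdc1, had 157, 147 and 143 in TSW and 145, 179 and 161 in CO. SLAMF7, a surface antigen of plasma cells, had 83.4, 93.9 and 84.4 in TSW and 66.9, 64.7 and 64.9 in CO (difference -0.41, limma adjusted p = 0.141), and IRF4, a master regulator, 153, 158 and 151 in TSW and 132, 129 and 120.3 in CO. XBP1, a factor of secretory cells, had 790.1, 792 and 732 in TSW and 703, 795 and 665 in CO, and the joining chain JCHAIN 2134, 1966 and 2125 in TSW and 2020.5, 2010.2 and 1924 in CO. TNFRSF17, the receptor BCMA, had 49.2, 48.0 and 47.4 in TSW and 36.8, 42.7 and 34.1 in CO (difference -0.35, limma adjusted p = 0.998). CD38 was higher, and SLAMF7, IRF4 and TNFRSF17 were lower, in every CO library without a call.

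Cell cycle lists held no called gene. DNA replication genes, all 52 tested, had 0 called by limma or with voom and 2 with an unadjusted p under 0.05. Their median was -0.12, with 8 higher and 44 lower, and each of the 52 intervals lay within the 1.5-fold limits. RRM2, a subunit of ribonucleotide reductase and the most abundant, had 344, 375 and 408 in TSW and 289, 325 and 318 in CO (difference -0.27, 95% interval -0.51 to -0.033). PCNA, the sliding clamp, had 202, 209 and 225 in TSW and 164, 205 and 211 in CO, which overlapped. The median of the list was -0.040 to -0.15 when each library was left out in turn. Mitotic genes, all 35 tested, had 0 called by limma or with voom, 1 with an unadjusted p under 0.05, a median of 0.085 and 30 higher against 5 lower. TOP2A, a topoisomerase, had 111, 108 and 102 in TSW and 126, 119.6 and 126 in CO, and the checkpoint kinase BUB1 111, 114 and 107 in TSW and 117, 113 and 113 in CO. PLK1, a mitotic kinase, had 75.2, 65.3 and 50.9 in TSW and 74.4, 82.1 and 69.8 in CO. TOP2A was higher in each CO library, and the other 2 overlapped.

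Metabolic and survival genes also held no call. Sterol synthesis, with 26 of 28 tested, had 0 called by limma or with voom, 3 with an unadjusted p under 0.05 and a median of -0.098 (-0.15 without TSW3) with 4 higher and 22 lower. All 26 intervals were within the 1.5-fold limits. FDPS, an enzyme of the mevalonate pathway, had 121, 128 and 117 in TSW and 87.0, 115 and 94.6 in CO, and the fatty acid desaturase SCD 176, 194 and 178 in TSW and 170.0, 171 and 169 in CO. Both were lower in every CO library without a call. Glycolysis and hypoxia genes, with 31 of 35 tested, had 0 called by limma or with voom, 1 with an unadjusted p under 0.05 and a median of -0.013, which was 0.023 after quantile normalization, 0.0073 without TSW1 and 0.040 without CO1. GAPDH, the most abundant, had 2107, 1869 and 1909.9 in TSW and 1569, 2049 and 1881 in CO, and the fructose transporter listed as slc2a5 24.7, 24.4 and 22.4 in TSW and 30.0, 33.4 and 32.1 in CO (limma adjusted p = 0.347). GAPDH overlapped and slc2a5 did not. The BCL2 family, regulators of apoptosis, had 11 of 15 tested, 0 called by limma or with voom and 0 with an unadjusted p under 0.05. Its median was -0.029 (-0.073 without TSW2, -0.0079 after quantile normalization). BCL2L1, which encodes the survival protein BCL-XL, had 176, 175 and 169 in TSW and 153, 168 and 166 in CO, MCL1 139, 141 and 148 in TSW and 172, 145 and 153 in CO, and the effector BAX 60.0, 63.7 and 58.6 in TSW and 46.0, 53.8 and 48.4 in CO. Of the 11 intervals 10 were within the limits.

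**Figure D5:**
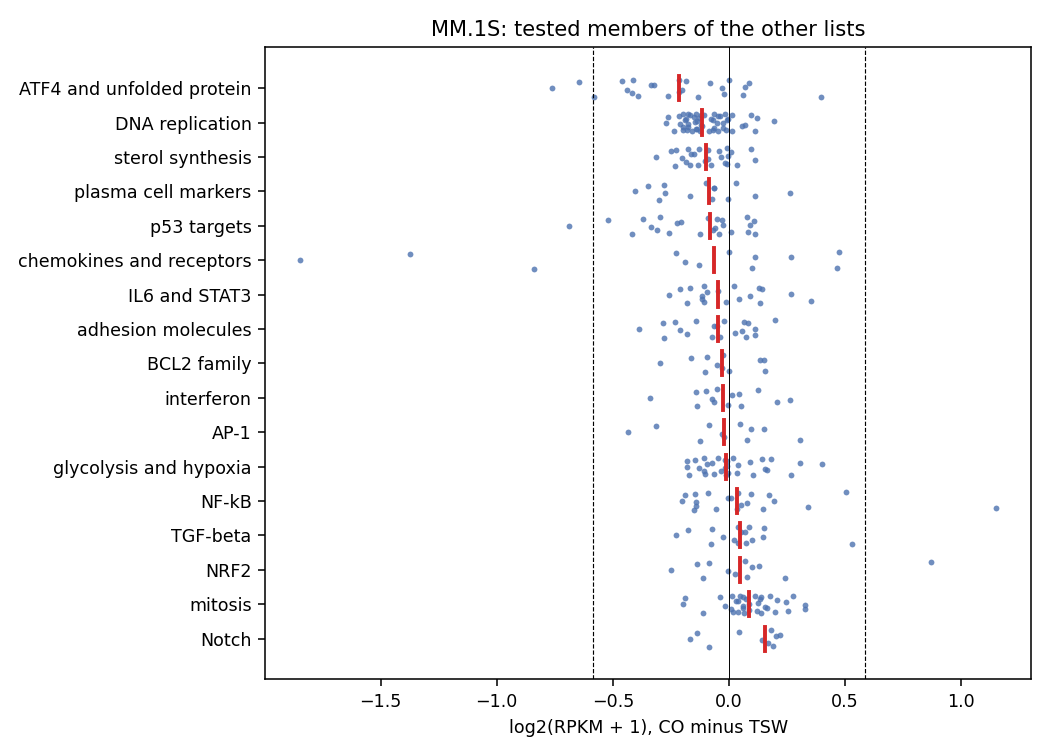
Log2(RPKM + 1) difference of CO minus TSW for the tested members of the other lists, each point a gene, the red bar the median of the list and dashed lines at the 1.5-fold limits. Medians lie between -0.21 for the ATF4 and unfolded protein genes and 0.16 for Notch, and points beyond the limits include CCL3, CCL3L3, Ccl4l2, CDKN1A, HMOX1 and IER3.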

How the data were processed

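RNA-Seq tables of 2 MM lines were used, with each column mapped to its library by name. The authors aligned reads to hg38 with Subread, summarised them with featureCounts (names from the submitters' processing notes) and deposited RPKM as log2(RPKM + 1) with 0.0001 added. The unit is log2, so limma 3.58.1 in R 4.3.3 took the place of the study's test on counts (lmFit, contrasts.fit, eBayes with a trend). The offset was subtracted, genes whose RPKM averaged 1 or more were tested, and a call needed more than a 1.5-fold difference and a Benjamini-Hochberg p below 0.05. PETs were recovered as whole numbers from the value steps (100% of values above 0, within 0.006 of a whole number) for depth, floors and voom. The pipeline was tested on simulated data.

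Named genes were every lower gene, the 20 largest increases, called genes with a TSW mean of at least 2, called list members and up to 4 others per list, the sort markers and plasma cell markers. Some genes under this rule are not reported here. PCK2 and IGLC5 fall outside this rule and were named after their values were seen. The members and lists were chosen with earlier results of these data known. The lists were stromal matrix, proteases, cytokines and identity, plasma cell markers, chemokines, p53, adhesion, Notch, TGF-beta, NF-kB, IL6 and STAT3, AP-1, ATF4 and unfolded protein, NRF2, DNA replication, mitosis, interferon, sterol, glycolysis and BCL2. CCL3L1 and CCL4L1 matched no symbol of the table.

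Alternatives were a pseudocount of 0.1, no filter, a filter at 5, scaling by the median of ratios, a replicate block, quantile normalization, only TSW and CO in the fit, no trend, no fold limit, voom, omission of low genes (RPKM below 2 without contact), and each library left out in turn. Sequences were matched by symbol in RefSeq tables. Python 3.11.15, numpy 2.4.6, pandas 2.3.3, scipy 1.17.1 and matplotlib 3.10.9 served for tables and figures. ATAC data were not used here.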

Additional observations from a re-analysis of the deposited data

Results flagged for a closer look

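Of the 27 genes called in MM.1S and tested in both lines, 3 had CO and TSW values that did not overlap in either line but differed in opposite directions. The same was so for 189 of all 9397 genes tested in both (2.01%), and RPMI8226 had 2 libraries per condition. FAM129B had a difference of 0.88 in MM.1S and -0.20 in RPMI8226, where its means were 30.1 in TSW and 26.0 in CO. HMOX1 had 0.87 in MM.1S and -0.27 in RPMI8226, with RPMI8226 means of 6.06 and 4.87. CDKN1A had -0.69 in MM.1S and 0.025 in RPMI8226, with RPMI8226 means of 22.0 and 22.4, a difference close to 0. The difference between the lines was not tested for any of the 3 genes, since the tables were normalized separately.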

How the results depend on the processing

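Of the results named, none turned its direction after being called. The 38 higher genes became 128 without a filter on low values, 5 at a mean RPKM of at least 5 and 4 without low genes (RPKM below 2 in MONO and in TSW). These settings change which genes are tested, by which genes drop out and by the adjustment and variance trend over the genes that remain. Of the 42 called genes, 11 were still tested at the mean of at least 5, and 4 of these (HMOX1, SOD2, SCNN1G, CDKN1A) lost their call. Without low genes 12 were still tested, and 6 lost it, GBP4 and Ccl4l2 in addition. The count of higher genes was 30 to 43 when a library was left out. The 4 lower genes became 2 at a mean RPKM of at least 5, 2 without the low genes and 11 with only TSW and CO in the fit, and 2 to 8 without a library. The 25 stromal-list genes became 45 without the filter, 4 at the stricter filter and 2 without the low genes, and were 24 or 25 without a library. The 9 genes outside the lists became 2 at the stricter filter and 18 with only TSW and CO in the fit, and 2 to 15 without a library. Intervals within the 1.5-fold limits numbered 15146 without the filter, where more genes were tested. The cause of the shifts with only TSW and CO in the fit, or without a library, was not tested.

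Replicate numbers do not come with a stated pairing. Correlations of the deviations of TSW and CO libraries with the same number were -0.38, 0.000159 and 0.0421, and libraries 1, 2 and 3 of TSW correlated best with CO libraries 2, 3 and 1, so the pairing had no support. With the replicate number as a block there were 36 higher and 4 lower genes, 25 of the stromal lists and 7 outside them, and 9292 intervals within the limits.

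Depth limits genes at a few PETs, for which no fold is given. Over the alternatives that left out a library, 24 of the 25 called stromal-list genes and 32 of all 42 called genes kept their call every time.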

Other observations

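IGLC5, an entry of the immunoglobulin lambda constant cluster outside the rule for named genes, had the most negative difference of all tested genes and was not called. Its RPKM was 216, 149 and 24.4 in TSW, 21.7, 27.6 and 26.2 in CO and 86.9, 54.5 and 68.3 in MONO, a difference of -1.85 with an SE of 0.60 (limma adjusted p = 0.671). TSW3 lay within the CO range, and the other TSW libraries were far above it. The difference was -2.79 and the gene was called without TSW3 (limma adjusted p = 7.14e-05), and -1.25 without TSW1, so it rested on single libraries. Lambda constant genes have near-identical copies among which PETs could be split.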
